A study of Mus musculus with 27 samples.

Results

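The expression of 10 genes of the MHC class I antigen presentation pathway, out of 50559 genes in the count table, was followed in mouse thyroid gland organoids (mTGOs). They were taken by name: the heavy chain genes H2-K1, H2-D1, H2-Q7 and H2-Q9, the light chain gene B2m, the transporter genes Tap1 and Tap2, the tapasin gene Tapbp, and the immunoproteasome genes Psmb8 and Psmb9. Thyroid cells of C57BL/6 mice aged 8-12 weeks were grown as organoids in Matrigel with EGF, FGF2, the ROCK inhibitor Y27632 and B27, and all groups shared this medium. Organoids were left non-irradiated (0 Gy) or received 2, 4 or 7 Gy of photons after 5 days of culture, and were collected at day 5 (0 Gy only), day 7 or day 11. Each of the 9 day and dose groups held 3 libraries, 27 in all, made with Smart3SEQ, which reads the 3′ ends of polyadenylated RNA. The 3 libraries of a group carried the identifiers mTG11, mTG12 and mTG14, called cultures here. The sample labels name the replicates as mice, and these names could not be matched.

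MHC class I molecules display peptides from inside the cell to CD8 T cells. Proteins are cut by the proteasome, in which interferon-inducible subunits can replace the constitutive ones, and the peptides are pumped into the endoplasmic reticulum by the TAP transporter and loaded with the help of tapasin onto a heavy chain paired with beta-2-microglobulin. Transcription of these genes is known to rise with interferon, and class I promoters carry a conserved upstream region with a kappaB-like site, an interferon-stimulated response element and the SXY elements bound by the NLRC5 complex.

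Of the 9 members placed in GRCm39, 8 lie in the MHC region of chromosome 17, and H2-Q9 was not placed here. H2-K1 (chr17:34214987-34219321, minus strand), Tapbp (chr17:34134873-34148267), Psmb9 (chr17:34400960-34406738, minus strand), Tap1 (chr17:34405996-34416199), Psmb8 (chr17:34416690-34420428) and Tap2 (chr17:34422501-34435829) stand close together, while H2-D1 (chr17:35481691-35486475) and H2-Q7 (chr17:35658131-35662749) lie further along. B2m is on chr2:121977957-121983594. Tap1 and Psmb9 point away from each other and overlap at their starts by 743 bases. Tapbp overlaps Zbtb22 on the same strand by 3422 bases.

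The promoters of 3 heavy chain genes and of B2m are shown because they share the conserved class I upstream region described above, and that of Tap1 because Tap1 was called at 7 Gy on both days. They were chosen after the values were seen. Windows of 300 bases, from 250 before to 50 after the annotated start, came from the RefSeq table of GRCm38.p6, which held 8 of the 10 members, and were placed in GRCm39 by exact match: H2-K1 at chr17:34219272-34219571 (minus strand), H2-D1 at chr17:35481820-35482119, B2m at chr2:121977918-121978217 and Tap1 at chr17:34406280-34406579. The H2-Q7 window matched chr17:35657881-35658180, before the gene, and 1 other place on the chromosome. Capitals mark matches, on either strand, to GGGGATTCC (kappaB-like), AANNGAAA (core of the interferon-stimulated response element), TGACG (cyclic AMP response-like) and ATTGG (inverted CCAAT box).
H2-K1: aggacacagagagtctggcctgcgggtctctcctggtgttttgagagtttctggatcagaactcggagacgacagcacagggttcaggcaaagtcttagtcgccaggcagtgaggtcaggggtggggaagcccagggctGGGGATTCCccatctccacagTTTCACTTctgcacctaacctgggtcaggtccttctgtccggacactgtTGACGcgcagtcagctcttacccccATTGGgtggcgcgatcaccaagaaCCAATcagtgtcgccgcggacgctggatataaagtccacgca
H2-D1: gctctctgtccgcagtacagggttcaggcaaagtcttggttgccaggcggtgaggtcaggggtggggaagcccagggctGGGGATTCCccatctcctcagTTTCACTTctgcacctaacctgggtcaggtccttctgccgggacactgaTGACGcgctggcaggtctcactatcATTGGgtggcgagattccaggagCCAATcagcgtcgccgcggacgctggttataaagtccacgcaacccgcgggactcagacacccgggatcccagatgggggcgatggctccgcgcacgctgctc
H2-Q7: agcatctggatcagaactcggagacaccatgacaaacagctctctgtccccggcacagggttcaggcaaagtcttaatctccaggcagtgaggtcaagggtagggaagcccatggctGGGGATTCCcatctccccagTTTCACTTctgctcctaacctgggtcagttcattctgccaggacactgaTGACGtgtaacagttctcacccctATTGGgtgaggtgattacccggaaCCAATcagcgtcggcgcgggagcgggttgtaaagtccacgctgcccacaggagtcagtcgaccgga
B2m: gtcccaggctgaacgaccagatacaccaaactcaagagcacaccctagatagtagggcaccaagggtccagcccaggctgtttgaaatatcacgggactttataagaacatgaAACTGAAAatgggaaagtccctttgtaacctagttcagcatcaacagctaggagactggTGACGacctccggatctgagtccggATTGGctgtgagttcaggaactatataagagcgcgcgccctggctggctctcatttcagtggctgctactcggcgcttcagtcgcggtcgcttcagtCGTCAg
Tap1: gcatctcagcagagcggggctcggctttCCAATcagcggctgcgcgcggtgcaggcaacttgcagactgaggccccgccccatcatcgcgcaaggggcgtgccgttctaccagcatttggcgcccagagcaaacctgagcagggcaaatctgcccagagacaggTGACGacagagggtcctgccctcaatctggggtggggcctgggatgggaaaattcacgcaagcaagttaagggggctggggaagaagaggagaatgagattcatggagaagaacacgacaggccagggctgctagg
H2-K1, H2-D1 and H2-Q7 each held all 4 motifs, in the same order. Between TGACG and the next ATTGG lay 20 bases in H2-K1, H2-D1 and B2m, and 19 in H2-Q7. B2m held the last 3 motifs and no GGGGATTCC, and Tap1 held TGACG and ATTGG. Of the windows not shown, Psmb9 had TGACG and ATTGG, Tapbp had ATTGG, and Psmb8 had none of these letters in this window. Among all 32851 promoters of the table, 0.250% held GGGGATTCC, 23.9% AANNGAAA, 20.8% TGACG and 37.4% ATTGG, and 5 windows (0.0152%) held all 4, belonging to H2-K1 (2 windows), H2-D1, H2-Q7 and Kat5. A match is a description of letters and not a binding site.

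The heavy chain genes resemble each other, so their counts were read together with the single-copy genes. H2-Q7 and H2-Q9 had the same count in 24 of 27 libraries and differed by at most 1 count in the others, and they are therefore 1 shared signal that stands as 2 members in every count below. Of the 75-base stretches in the last 500 bases of annotated transcripts, 6.07% in H2-K1, 9.71% in H2-D1 and 15.4% in H2-Q7 also occurred in other genes, against 0.595% in Tapbp and 0 in B2m, Tap1, Tap2, Psmb8 and Psmb9. H2-Q9 was not in the annotation searched, so the share of H2-Q7 leaves out what it has in common with H2-Q9. B2m overlaps Patl2 on the opposite strand over 5638 bases, and how the counting treated strand is not given in the sources used here.

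Library totals ran from 2528866 to 5723150 counts (median 3758142), so that 3 counts correspond to 0.524 to 1.19 CPM, where CPM are the counts of a gene relative to the total of its library. Of the thyroid follicular markers, Nkx2-1 (6.32 to 21.5 CPM) and Foxe1 (20.3 to 43.0 CPM) were detected in 27 of 27 libraries. Tg stayed at or below 16.7 CPM, and Slc5a5, the iodide transporter gene, had a count in 6 libraries. The leukocyte markers Cd3e and Nkg7 and the endothelial markers Emcn and Cldn5 were at 0 in every library, while the leukocyte markers Cd68, Lyz2 and Laptm5 had counts in 27 of 27 libraries (up to 59.0, 16.2 and 18.6 CPM), Itgam in 26 (up to 31.7 CPM) and the endothelial marker Egfl7 in 27 (up to 10.5 CPM). The summed level of 6 epithelial markers was 4592 to 14538 CPM. In bulk RNA, fewer cells of a type and less RNA per cell cannot be told apart.

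The first question was how the class I genes stood in growing organoids without irradiation. At 0 Gy the 8 members other than H2-Q7 and H2-Q9 rose from day 5 to day 11, and none of them fell between any of these days. The classical heavy chain genes H2-K1 and H2-D1 present peptides to T cells. H2-K1 was at 101, 127 and 105 CPM in the 3 day 5 libraries (cultures mTG11, mTG12 and mTG14, an order kept throughout), at 208, 157 and 161 CPM at day 7 and at 358, 196 and 262 CPM at day 11. Day 5 lay below both later days in every library, and days 7 and 11 overlapped. The log2 change was 0.81 ± 0.19 (SE, adjusted p = 0.00865) from day 5 to day 7 and 0.63 ± 0.18 (adjusted p = 0.0252) from day 7 to day 11, by edgeR's quasi-likelihood test. The second call was lost without day 11 mTG11 (log2 change 0.40), day 11 mTG14, day 7 mTG12 or day 7 mTG14, with adjusted p reaching 0.101. H2-D1 rose by a log2 change of 1.40 ± 0.15 over days 5 to 11 (adjusted p = 1.7e-05), from 119 ± 15.5 to 283 ± 61.1 CPM (SD, n = 3).

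H2-Q7 and H2-Q9 encode Qa-2, a nonclassical class I molecule. They had at most 3 counts in every day 5 and day 7 library at 0 Gy, so no fold is given for that step. Summed, the pair had 11 counts at day 7 and 77 at day 11, a ratio of CPM of 6.96 (exact 95% interval 3.68 to 14.5, counting error only). At 0 Gy they passed the filter on low counts through the day 11 libraries alone, so they had to differ from the earlier days, and no test of these steps is given.

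B2m, the light chain shared by all class I molecules, was at 85.4, 78.4 and 62.5 CPM at day 5, at 114, 84.9 and 104 CPM at day 7, and at 304, 180 and 220 CPM at day 11. The day 11 libraries stood above all others, and days 5 and 7 overlapped. The step from day 7 to day 11 was the larger, with a log2 change of 1.22 ± 0.18 (adjusted p = 0.000515), while the step from day 5 to day 7 (0.57 ± 0.19) had an adjusted p of 0.0516, or 0.00604 with the culture in the fit.

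The transporter genes Tap1 and Tap2, whose products form the peptide pump, rose by log2 changes of 1.64 ± 0.20 (adjusted p = 4.03e-05) and 1.67 ± 0.26 (adjusted p = 0.000307) from day 5 to day 11. Tap1 moved in both steps, by 0.89 and 0.75, and the call of the second step was lost without day 11 mTG11 (adjusted p = 0.0521). Tap2 rose in the first step (1.16 ± 0.28, adjusted p = 0.0103), and its second step of 0.51 ± 0.23 missed the threshold (adjusted p = 0.134). Tapbp, the bridge between TAP and the empty class I molecule, changed least of the 10, from 107 ± 6.53 CPM at day 5 to 152 ± 25 CPM at day 11 (log2 change 0.65 ± 0.15, adjusted p = 0.00334). Its step to day 7 (0.51, adjusted p = 0.0258) lost its call without day 5 mTG12, day 5 mTG14 or day 7 mTG11, with adjusted p up to 0.103.

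The immunoproteasome genes moved furthest among the single-copy members. Psmb8, which encodes the subunit that replaces Psmb5, was at 2.07, 3.80 and 1.71 CPM at day 5, at 9.64, 6.36 and 4.63 CPM at day 7, and at 35.0, 24.9 and 22 CPM at day 11. The 3 days did not overlap, and the log2 change from day 5 to day 11 was 3.61 ± 0.32 (adjusted p = 3.04e-06). Its first step (1.62, adjusted p = 0.00973) was lost without day 5 mTG14 (adjusted p = 0.0518). Psmb9, whose product replaces Psmb6, had 7 counts in all at day 5, with 0 in mTG12, and reached 8.20 ± 1.42 CPM at day 11 (log2 change 3.50 ± 0.47, adjusted p = 8.15e-05). It passed the filter on low counts through the later days only, which favours a difference from day 5. Its step from day 7 to day 11 (1.05, adjusted p = 0.0414) lost its call without any 1 of 5 of the 6 libraries, the exception being day 11 mTG12, with adjusted p up to 0.138.

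With H2-Q7 and H2-Q9 left out, 7 of 8 members were called higher from day 5 to day 7, against 12% of the 18442 genes tested, and with the culture in the fit 8 of 8 against 14%. From day 7 to day 11 the count was 6 of 8 against 9.57% (6 against 11.5% with the culture), and from day 5 to day 11 it was 8 of 8 against 21.3% (8 against 22.6%). The counts against day 5 include Psmb9 with this limit, and these comparisons share libraries. The median log2 change over the 8 from day 5 to day 11 was 1.66, beside 0.06 over all genes tested. Leukocyte markers moved in the same direction: the summed level of the 15 listed markers was 7.25 to 18.2 CPM at day 5 and 52.5 to 105 CPM at day 11, and of the 4 that could be tested Cd68, Itgam and Laptm5 rose, while Ptprc had at most 3 counts in any library. Of the 7 fibroblast markers 5 were called lower over the same days, with a median log2 change of -2.22. Of the 6 epithelial markers Epcam (1.64), Krt18 (2.30) and Krt8 (1.43) rose, and the basal keratin genes Krt5 (-1.15) and Krt14 (-2.31) fell. The part of these markers in the rise of the members was not tested.

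**Figure D1:**
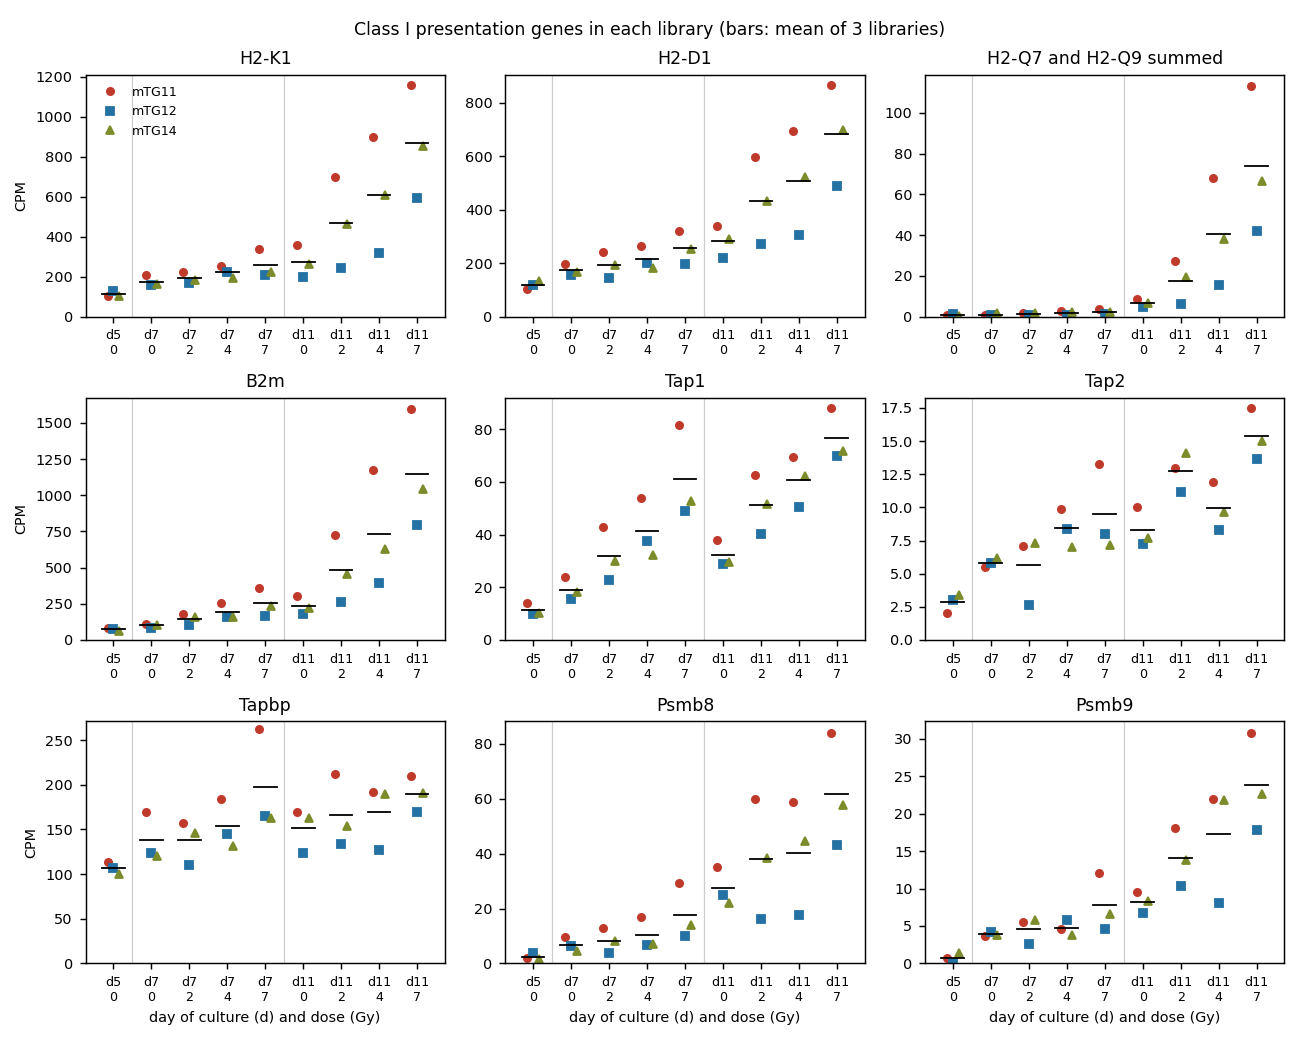
CPM of the members in each library, by day and dose, in 9 panels with linear axes from 0. H2-Q7 and H2-Q9 are summed, points are the 3 cultures and bars the group means. The mTG11 library was the highest of its group for B2m, H2-K1 and H2-D1 at every dose of day 11, and the group means of B2m climbed from 235 CPM at 0 Gy to 1144 CPM at 7 Gy.

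The second question was what 7 Gy did by day 7, that is 2 days after exposure. B2m and Tap1 rose, and the other members had positive changes that did not pass in the edgeR fit without the culture. B2m was at 114, 84.9 and 104 CPM at 0 Gy and at 360, 164 and 235 CPM at 7 Gy, without overlap, a log2 change of 1.33 ± 0.27 (adjusted p = 0.009). Tap1 was at 23.7, 15.4 and 18.3 CPM at 0 Gy and at 81.7, 49.1 and 52.7 CPM at 7 Gy, also without overlap, a log2 change of 1.67 ± 0.26 (adjusted p = 0.0018). Neither call was lost on leaving out any 1 of the 6 libraries.

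Within each dose the cultures stood at different levels, and a fit with the culture as a replicate block was run beside the first. In that fit H2-K1 (log2 change 0.54 without the culture term, adjusted p = 0.00148 with it), H2-D1 (0.57, adjusted p = 0.00142), Tapbp (0.52, adjusted p = 0.00362) and Psmb8 (1.37, adjusted p = 0.000593) passed as well. Without the culture these 4 had adjusted p values of 0.0864, 0.106, 0.142 and 0.106. Tap2 (0.70 ± 0.32) and Psmb9 (0.98 ± 0.36) passed in neither fit, with adjusted p of 0.137 and 0.0767 with the culture. H2-Q7 and H2-Q9 together had 11 counts at 0 Gy and 28 at 7 Gy, a ratio of CPM of 2.51 (exact 95% interval 1.21 to 5.60), and did not pass.

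Thus 2 of 10 members were called higher at 7 Gy on day 7, against 3.2% of the 19346 genes tested, and 6 of 10 against 5.4% with the culture. DESeq2 called 5 of 10 and edgeR with no filter on low counts 7, both without the culture. The lower doses at day 7 share the same 0 Gy libraries. At 4 Gy edgeR called 0 of 10 (0.972% of genes), with 2 at an unadjusted p under 0.05 and 1 by DESeq2. With the culture edgeR called 2 of 10 (2.84%), B2m (adjusted p = 0.000612) and Tap1 (adjusted p = 0.000113). Without the culture their log2 changes were 0.86 ± 0.27 (adjusted p = 0.143) and 1.05 ± 0.27 (adjusted p = 0.0715). At 2 Gy edgeR called 0 of 10 (0.119% of genes), with 1 at an unadjusted p under 0.05 and 0 by DESeq2. With the culture it called 1 (0.424%), Tap1 (adjusted p = 0.0281), whose log2 change without the culture was 0.67 ± 0.28 (adjusted p = 0.544).

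At day 11, 6 days after exposure, the 7 Gy group had the highest mean level of the 9 groups for 9 of the 10 members, Tapbp excepted. The share of all genes with their highest mean in this group was not counted. H2-K1 was at 358, 196 and 262 CPM at 0 Gy, at 699, 241 and 462 CPM at 2 Gy, at 896, 319 and 611 CPM at 4 Gy and at 1158, 595 and 856 CPM at 7 Gy. Within each culture the level climbed with every dose, and only the 7 Gy group stood clear of the 0 Gy group. The log2 change at 7 Gy was 1.65 ± 0.40, with an adjusted p of 0.0606, or 3.56e-07 with the culture. H2-D1 went from 340, 218 and 289 CPM at 0 Gy to 866, 488 and 696 CPM at 7 Gy, again without overlap. Its log2 change was 1.24 ± 0.32, with an adjusted p of 0.0728, or 1.42e-06 with the culture.

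The Qa-2 genes had the largest change of all members at this day. Summed, H2-Q7 and H2-Q9 were at 8.53, 4.68 and 6.49 CPM at 0 Gy, at 27.1, 6.10 and 19.4 CPM at 2 Gy, at 68.2, 15.6 and 38.2 CPM at 4 Gy and at 113, 42.0 and 66.7 CPM at 7 Gy. The ratio of CPM at 7 Gy to 0 Gy was 11.3 (exact 95% interval 8.98 to 14.5, counting error only), and H2-Q7 had a log2 change of 3.43 ± 0.60 (adjusted p = 0.0142). The call was lost when any 1 of the 3 libraries at 0 Gy was left out (adjusted p up to 0.0740), and with the culture in the fit it was kept in each of these cases (adjusted p at most 1.38e-05).

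B2m was at 304, 180 and 220 CPM at 0 Gy, at 726, 264 and 459 CPM at 2 Gy, at 1172, 392 and 632 CPM at 4 Gy and at 1595, 792 and 1045 CPM at 7 Gy. The 7 Gy libraries lay above every 0 Gy library, while mTG12 at 2 Gy lay below mTG11 at 0 Gy. At 7 Gy the log2 change was 2.25 ± 0.42 (adjusted p = 0.0167). Without the culture in the fit the call was lost on leaving out day 11 mTG12 or mTG14 at 0 Gy or mTG11 at 7 Gy (adjusted p up to 0.0861), and with it the adjusted p stayed at or below 3.33e-06.

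Tap1 was at 38.1, 29.0 and 29.4 CPM at 0 Gy, at 62.4, 40.1 and 51.4 CPM at 2 Gy, at 69.4, 50.6 and 62.4 CPM at 4 Gy and at 87.9, 69.8 and 71.8 CPM at 7 Gy. Its log2 change of 1.21 ± 0.17 (adjusted p = 0.00684) was the only member call that held on leaving out any 1 of the 6 libraries without the culture in the fit. Tap2 was at 10.0, 7.24 and 7.70 CPM at 0 Gy, at 13.0, 11.1 and 14.1 CPM at 2 Gy, at 11.9, 8.32 and 9.66 CPM at 4 Gy and at 17.5, 13.7 and 15 CPM at 7 Gy, so that its mean at 2 Gy (12.7 CPM) stood above that at 4 Gy (9.96 CPM). At 7 Gy it rose by 0.85 ± 0.19 (adjusted p = 0.0433). That call was lost without any 1 of the 6 libraries (adjusted p 0.0535 to 0.157), and with the culture it was kept (at most 0.0290). Tapbp was at 170, 123 and 162 CPM at 0 Gy and 209, 170 and 191 CPM at 7 Gy, with 212, 134 and 154 CPM at 2 Gy and 192, 126 and 190 CPM at 4 Gy, and passed in neither fit (log2 change 0.29 ± 0.19, adjusted p = 0.543, or 0.0874 with the culture).

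Psmb9 was at 9.52, 6.70 and 8.39 CPM at 0 Gy, at 18.1, 10.3 and 13.8 CPM at 2 Gy, at 21.9, 8.10 and 21.8 CPM at 4 Gy and at 30.8, 17.8 and 22.7 CPM at 7 Gy. It rose at 7 Gy (log2 change 1.5 ± 0.35, adjusted p = 0.0474). This call was lost without any 1 of 5 libraries, the exception being mTG12 at 7 Gy (adjusted p up to 0.166), and kept with the culture (at most 0.00576). Psmb8 was at 35.0, 24.9 and 22 CPM at 0 Gy, at 60, 16.2 and 38.3 CPM at 2 Gy, at 58.9, 17.5 and 44.4 CPM at 4 Gy and at 84.0, 43.2 and 57.9 CPM at 7 Gy. The 7 Gy and 0 Gy groups did not overlap, and in mTG12 the 2 and 4 Gy levels lay below the 0 Gy level. At 7 Gy it did not pass in the first fit and passed with the culture (log2 change 1.14 ± 0.43, adjusted p = 0.225, or 0.0024 with the culture).

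At 7 Gy on day 11, 6 of 10 members were called higher, against 1.06% of the 19901 genes tested, and 9 of 10 against 3.6% with the culture. Leaving out 1 library brought the 6 calls to 2 without mTG11 at 0 Gy, 1 without mTG12 or mTG14 at 0 Gy, and 3, 5 and 4 without mTG11, mTG12 and mTG14 at 7 Gy, while the 9 calls with the culture stayed at 9. At 4 Gy edgeR called 0 of 10 (0.00502% of genes), with 7 at an unadjusted p under 0.05 and 1 by DESeq2, and 7 of 10 (0.864%) with the culture. At 2 Gy it called 0 of 10 (0% of genes), with 3 at an unadjusted p under 0.05 and 0 by DESeq2, and 6 of 10 (0.281%) with the culture. The 6 at 2 Gy were H2-K1, H2-D1, H2-Q7, H2-Q9, B2m and Tap1, with log2 changes without the culture from 0.57 (H2-D1) to 1.38 (H2-Q9), and Psmb9 joined them at 4 Gy (1.03, adjusted p = 0.0277). At 2 Gy leaving out 1 library brought the 6 calls with the culture to 1, B2m, without mTG11 at 0 Gy or mTG11 or mTG14 at 2 Gy, to 2 without mTG14 at 0 Gy and to 4 without mTG12 at 0 Gy, and left 6 without mTG12 at 2 Gy. At 4 Gy the 7 calls came to 6 or 7. The 3 doses share the 0 Gy libraries. The median log2 change over the members was 1.37 at 7 Gy, beside 0.01 over all genes.

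**Figure D2:**
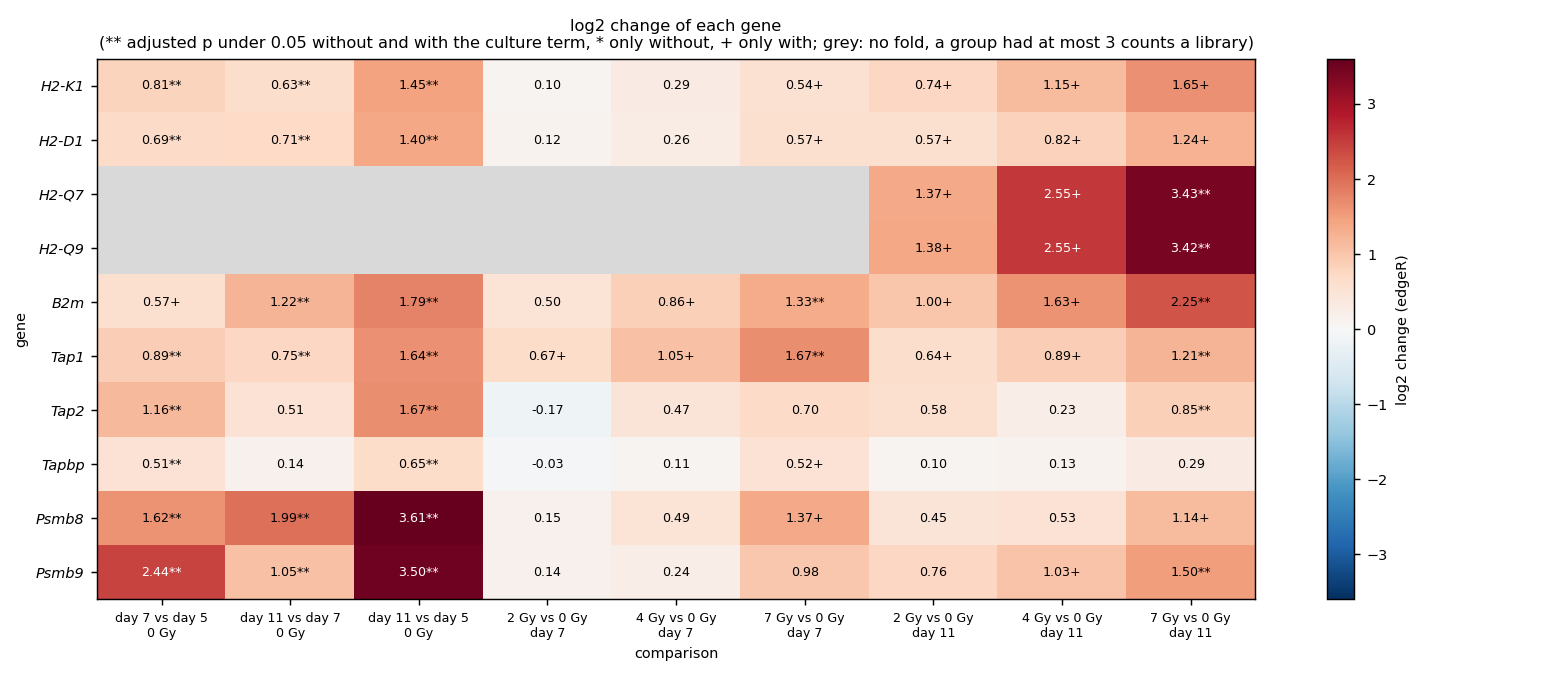
Log2 change of each member in the 9 comparisons between groups, as a heat map centred on 0. Marks tell whether a change passed the test in both fits or only with the culture, and grey cells are H2-Q7 and H2-Q9 where a group had at most 3 counts in every library and no fold is drawn. At 7 Gy on day 11 the changes ran from 0.29 for Tapbp to 3.43 for H2-Q7.

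Within each culture, the 7 Gy level was above the 0 Gy level for every member in 3 of 3 cultures at both days. The share of all genes for which this held was not counted, and H2-Q7 and H2-Q9 had at most 3 counts per 0 Gy library at day 7. Every 7 Gy library stood above every 0 Gy library for 7 of 10 members at day 7, against 13.3% of genes. At day 11 this held for 9 of 10, against 12.4%. At day 11 the ratios of 7 Gy to 0 Gy were 3.24, 3.04 and 3.27 for H2-K1, 2.55, 2.23 and 2.41 for H2-D1, 13.3, 8.99 and 10.3 for H2-Q7 and H2-Q9 summed, and 5.24, 4.40 and 4.74 for B2m. They were 2.31, 2.41 and 2.44 for Tap1, 1.75, 1.89 and 1.95 for Tap2, 1.23, 1.38 and 1.17 for Tapbp, 2.4, 1.73 and 2.63 for Psmb8, and 3.23, 2.66 and 2.70 for Psmb9. At day 7 mTG11 had the highest ratio for H2-K1, H2-D1, B2m, Tap1, Tap2, Tapbp, Psmb8 and Psmb9. B2m, for example, had 3.17, 1.93 and 2.26, and Psmb9 had 3.30, 1.09 and 1.72. The libraries are bulk RNA of 1 culture each, and these ratios carry no test of their own.

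**Figure D3:**
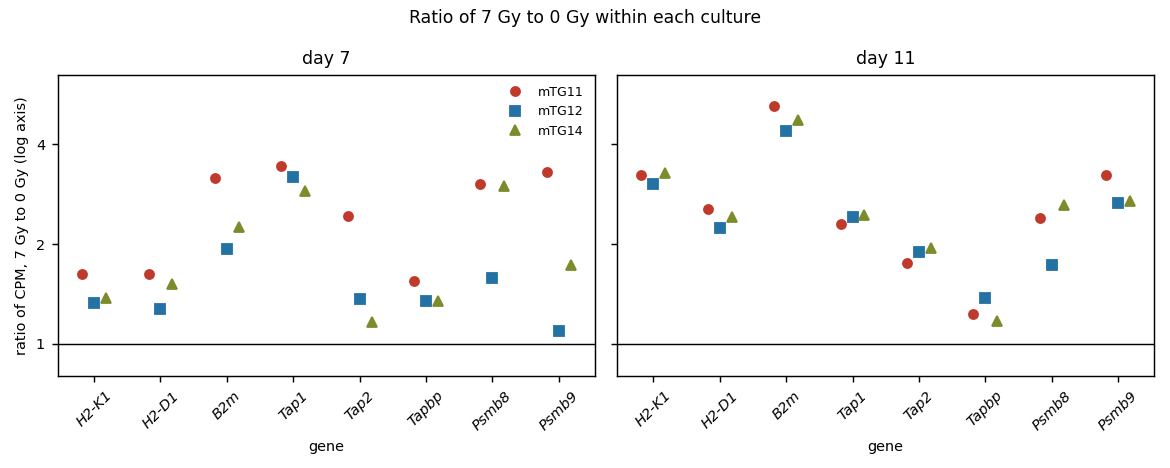
Ratio of CPM at 7 Gy to 0 Gy within each culture at days 7 and 11, on a log axis, for the 8 members other than H2-Q7 and H2-Q9. A line marks a ratio of 1, and every point lies above it, from 1.09 (Psmb9, mTG12, day 7) to 5.24 (B2m, mTG11, day 11).

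A slope per Gy over all 4 doses tests a linear trend on the log2 scale once per day. A call does not mean that the level climbed with every dose. At day 7, 4 of 10 members had a rising slope, against 3.9% of genes, and 6 against 5.61% with the culture. The 4 were Tap1 (0.23 per Gy on the log2 scale, adjusted p = 0.000652), B2m (0.19, adjusted p = 0.00319), H2-K1 (0.08, adjusted p = 0.0371) and Psmb8 (0.21, adjusted p = 0.0476). Without mTG11 at 7 Gy the slopes of H2-K1 (0.05, adjusted p = 0.182) and Psmb8 (0.12, adjusted p = 0.288) fell below the threshold, and H2-K1 also lost its call without each of 3 other libraries and Psmb8 without each of 7. At day 11, 7 of 10 had a rising slope, against 1.73% of genes, and 9 against 3.78% with the culture. H2-Q7 and H2-Q9 had the steepest (0.45 per Gy, adjusted p = 0.00441), before B2m (0.31, adjusted p = 0.00664), H2-K1 (0.23, adjusted p = 0.0295), Psmb9 (0.20, adjusted p = 0.0268), H2-D1 (0.17, adjusted p = 0.0392) and Tap1 (0.16, adjusted p = 0.00423). H2-K1, H2-D1 and Psmb9 lost this call without 5, 7 and 5 of the 12 libraries, with adjusted p up to 0.119, 0.143 and 0.119. Tapbp had the flattest slope at day 11 (0.04, adjusted p = 0.47).

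Whether the response to 7 Gy differed between the days was tested in 1 fit of all day 7 and day 11 libraries. Without the culture edgeR called 0 of 10 members (2.2% of genes had a larger response at day 11), with 1 at an unadjusted p under 0.05 and 0 by DESeq2. With the culture it called 3 of 10 (3.61% of genes). These were H2-K1, whose response was larger at day 11 by 1.15 ± 0.24 on the log2 scale (adjusted p = 0.00398, or 0.262 without the culture), H2-D1, by 0.72 ± 0.17 (adjusted p = 0.0114, or 0.474), and B2m, by 1.00 ± 0.21 (adjusted p = 0.00377, or 0.452). Tap1 had the opposite sign, at -0.43 ± 0.34, and did not pass (adjusted p = 0.635, or 0.171 with the culture). Tap2, Tapbp, Psmb8, Psmb9 and the Qa-2 genes did not pass in either fit.

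The members also varied together from library to library. Over the 27 libraries the Pearson r of log2(CPM + 1) between 2 members, H2-Q7 left out, had a median of 0.889 over 36 pairs (0.591 to 0.990), with H2-K1 and H2-D1 the closest pair. After the 9 group means were removed the median was 0.781 (0.498 to 0.951). These points share cultures, days and doses, and the values are descriptions. Among the 9530 genes with at least 10 CPM on average, B2m was most like Ifi27l2a (0.982) and H2-K1 (0.982), and Tap1 most like Usp18 (0.978) and Isg15 (0.977). Psmb8 was most like Shisa5 (0.973), Psmb9 most like H2-T23 (0.961), Tap2 most like Ifit3b (0.942), and Tapbp most like Ifitm3 (0.919).

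Other genes of the pathway were divided by role. Of 20 other class I heavy chain genes, 18 were in the table. At 7 Gy edgeR called 0 of 13 tested at day 7 (3 at an unadjusted p under 0.05, 0 by DESeq2), against 3.2% of genes. At day 11 it called 2 of 14 (9 at an unadjusted p under 0.05, 4 by DESeq2), against 1.06%. With the culture in the fit these counts were 2 and 6, against 5.4% and 3.6%. The 6 include H2-Q5 and H2-Q6, which had 2.49 and 5.61 counts at 0 Gy on day 11. They passed the filter on low counts through the irradiated libraries only, which favours a difference from 0 Gy. Both also share 75-base stretches with H2-Q7. The 2 called at day 11 without the culture were H2-T22 (log2 change 1.11 ± 0.20, adjusted p = 0.0164) and H2-T10 (1.62 ± 0.38, adjusted p = 0.0489), ligands of gamma delta T cells. The peptide loading and trimming genes Calr, Canx, Erap1, Lnpep, Pdia3 and Tapbpl did not pass at either day of 7 Gy in either edgeR fit or by DESeq2 (0 and 1 of 6 at an unadjusted p under 0.05), and from day 5 to day 11 Calr, Canx and Lnpep fell. The remaining immunoproteasome genes (Pomp, Psmb10, Psme1 and Psme2) and the constitutive subunits that the inducible ones replace (Psmb5, Psmb6 and Psmb7) had no call at 7 Gy in either edgeR fit or by DESeq2, with 1 of the first 4 at an unadjusted p under 0.05 on each day and 0 of the 3 constitutive ones. From day 5 to day 11 at 0 Gy, Psme1 rose by 1.10 ± 0.09 (adjusted p = 1.33e-06) and Psme2 by 0.50 ± 0.12 (adjusted p = 0.00539), while Pomp and all 3 constitutive subunits fell.

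Of 19 regulators of class I transcription and interferon signalling, 14 rose from day 5 to day 11 at 0 Gy, against 21.3% of genes. The smallest adjusted p was that of the interferon gamma receptor gene Ifngr1 (1.56 ± 0.12, adjusted p = 1.25e-06), which did not have the largest change. At 7 Gy on day 7, 4 of 19 rose, against 3.2% of genes. DESeq2 called 3, 10 had an unadjusted p under 0.05, and 5 passed with the culture (5.4% of genes). Among the 4 were the interferon signalling genes Irf9 (1.89 ± 0.35, adjusted p = 0.00474) and Stat2 (2.21 ± 0.46, adjusted p = 0.00969), and Nlrc5 (3.44 ± 0.96, adjusted p = 0.0451), the class I transactivator. Nlrc5 rested on few reads, with 3 counts at 0 Gy and 37 at 7 Gy. It passed the filter on low counts through the irradiated libraries only, which favours a difference from 0 Gy. The count of 4 includes it with this limit. The 37 were spread unevenly, as the 7 Gy libraries ran from 0.771 to 6.77 CPM (3.13 ± 3.19, SD). At day 5 and 0 Gy Nlrc5 had 7 counts. At 7 Gy on day 11, 2 of 19 rose (1.06% of genes), among them Stat2 (1.56 ± 0.28, adjusted p = 0.0142). DESeq2 called 3, 6 had an unadjusted p under 0.05, and 3 passed with the culture (3.6% of genes). The interferon genes themselves were scarcely counted. Ifna4, Ifne, Ifnk and Ifng were at 0 in every library, and Ifnb1, Ifnl2 and Ifnl3 had at most 1, 0.5 and 3 counts in any library, levels at which a change was not detectable at this depth.

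A reference of 10 interferon-stimulated genes was read at the same doses. All 10 were called higher at 7 Gy on day 7 (3.2% of genes), with a median log2 change of 2.85. On day 11 it was 3 of 10 (1.06% of genes), or 10 with the culture (3.6%), with a median of 1.86. The 8 members other than H2-Q7 and H2-Q9 had medians of 0.84 and 1.23 at the same days. The mean summed level of the members was 624 CPM at 0 Gy and 1061 CPM at 7 Gy on day 7, and 1023 and 3138 CPM on day 11, while the reference genes summed to 60.4 and 521 CPM on day 7 and to 301 and 969 CPM on day 11.

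**Figure D4:**
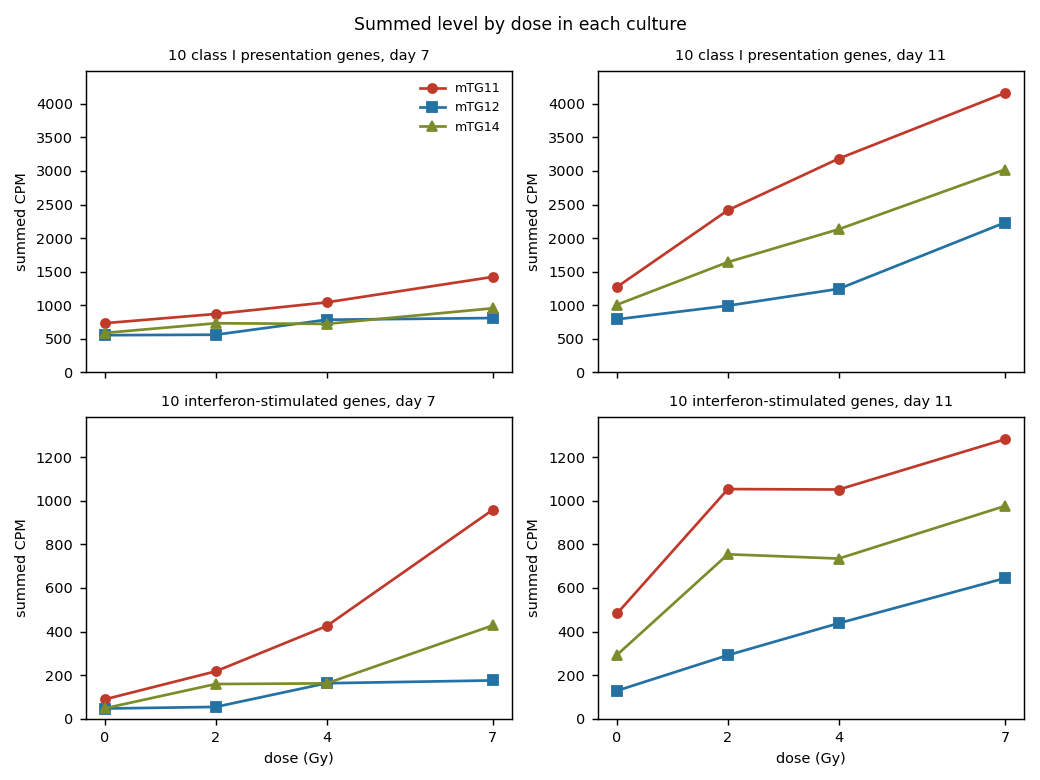
Summed CPM of the 10 members and of 10 interferon-stimulated genes against dose, with 1 line per culture, at days 7 and 11. The members' sum at day 11 ran from 790 to 1273 CPM at 0 Gy and from 2231 to 4163 CPM at 7 Gy.

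Markers of other cell types were read beside the dose comparisons. No leukocyte marker was called at 7 Gy at either day in either edgeR fit or by DESeq2, among 7 and 6 tested (1 and 0 at an unadjusted p under 0.05). At day 11 the summed level of the 15 markers was 52.5 to 105 CPM at 0 Gy and 61.4 to 88.4 CPM at 7 Gy. For the 7 fibroblast markers edgeR called 0 at 7 Gy at both days (0 at an unadjusted p under 0.05 and 0 by DESeq2). With the culture it called 1 higher at day 7 (5.4% of genes) and 3 at day 11 (3.6%). Their summed level at day 11 was 5.48 to 38.1 CPM at 0 Gy, 23 to 106 CPM at 2 Gy and 16.4 to 75.8 CPM at 7 Gy, and its part in the members' values was not tested.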

How the data were processed

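Smart3SEQ libraries were sequenced as 75 bp single reads on a NextSeq 500. The authors deposited 1 table of estimated counts per gene, which need not be whole: 56.3% of nonzero values were. The submitters' processing notes name GRCm39, STAR and edgeR, without versions. The counting tool, annotation and handling of reads with several matches are not given in the sources used here. Intervals cover counting error only, since molecular identifiers are not mentioned either. Column names give an identifier (mTG11, mTG12, mTG14), called culture here, with day and dose. The labels give mouse 1 to 3, and these could not be matched. The series text speaks of 4 mice. Columns were therefore assigned to groups, and culture was used as the replicate block.

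Counts were rounded and tested with edgeR 4.0.16 (quasi-likelihood, TMM, genes whose counts within a fit added up to 10 or more) in R 4.3.3, with Benjamini-Hochberg adjustment over all genes tested and a threshold of 0.05. Log2 changes in the text come from the fit without the culture unless stated. Fits held the 9 libraries at 0 Gy, the 12 of each irradiation day, or all 24 of days 7 and 11. DESeq2 1.42.0 was an alternative, along with other filters, no TMM factors, only the compared groups, summed paralogs, the culture as replicate block, and leaving out each library. As a check of the pairing, deviations from group means were correlated between libraries of 1 culture: r was over 0.1 in 9 of 9 pairs at 0 Gy, 18 of 18 at day 7 and 18 of 18 at day 11 (means 0.216, 0.282 and 0.351). The means between cultures (-0.108, -0.141 and -0.175) follow from these once group means are removed, and add nothing to the check. No 2 libraries of a group agreed within sampling noise (lowest chi-square per degree of freedom 3.39 over 27 pairs). edgeR and DESeq2 without the culture were also run on simulated counts for 7 Gy against 0 Gy at day 11. The simulation held no culture effect, so it does not check the fit with the culture.

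The 10 members and all gene lists were chosen with earlier results of these data known. Every member is named. From other lists, at most the 4 called genes with the smallest adjusted p in a comparison and genes at or near 0 are named, and lists without a call are named in full. Some genes of these lists are not reported here.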

Additional observations from a re-analysis of the deposited data

Results flagged for a closer look

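For 3 members there was a response to 7 Gy that differed between days 7 and 11 when the difference itself was tested with the culture in the fit. The response was larger at day 11 by a log2 value of 1.15 for H2-K1 (adjusted p = 0.00398), by 0.72 for H2-D1 (adjusted p = 0.0114) and by 1.00 for B2m (adjusted p = 0.00377). The 7 Gy level exceeded the 0 Gy level in 3 of 3 cultures at both days for each of them, and the share of all genes for which this held was not counted. In the first fit, without the culture, none of the 3 passed (adjusted p = 0.262, 0.474 and 0.452). With no filter on low counts and no culture term, 3 members were called.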

How the results depend on the processing

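The 8 members other than H2-Q7 and H2-Q9 rose from day 5 to day 11 at 0 Gy under each alternative. At day 11 most dose calls came only with the culture in the fit or with no filter on low counts. At most 3 counts per library for H2-Q7 and H2-Q9 at 0 Gy before day 11, and estimated counts shared among heavy chain genes, limit those values. With the culture as a replicate block, 31 of 120 member changes gained a call and 0 lost one. With no filter on low counts and no culture term, 31 also gained a call and 0 lost one. Leaving out a library aside, the other alternatives without the culture lost 3 calls (DESeq2), 1 (no TMM factors) and 1 (only the groups compared). DESeq2 gained 10, only the groups compared gained 5, and a mean of at least 1 CPM and summed paralogs gained 1 each. The cause of these shifts was not tested. No change of sign occurred outside the leave-one-out fits.

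Members called went from 0 to 2 at 2 Gy on day 7 with no filter on low counts and to 1 with the replicate block. At 4 Gy on day 7 they went from 0 to 1 (DESeq2) and to 2 with no filter, with only the groups compared, and with the block. At 7 Gy on day 7 they went from 2 to 5 (DESeq2), 7 (no filter) and 6 (block). On day 11 they went from 0 to 6 (no filter) and 6 (block) at 2 Gy, and from 0 to 1 (DESeq2), 8 (no filter) and 7 (block) at 4 Gy. The difference in response between the days went from 0 to 3 with no filter and to 3 with the block.

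Genes called at 2 Gy on day 7 numbered 24, against 61 (DESeq2), 404 (no filter), 7 (only the groups compared) and 139 (block). At 4 Gy they numbered 315, against 1263 (no filter) and 1010 (block), and at 7 Gy 1345, against 2211 and 2206. On day 11 they numbered 0 at 2 Gy, against 1 (DESeq2), 267 (no filter) and 72 (block). At 4 Gy the count was 1, against 37 (DESeq2), 465 (no filter), 0 (only the groups compared) and 238 (block), and at 7 Gy 302, against 1205 (no filter) and 1296 (block). The day 11 slope had 499, against 784 (DESeq2) and 1353 (block), and the difference between days 660, against 1234 (no filter) and 1153 (block).

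Leaving out each library in turn, members called, H2-Q7 and H2-Q9 included, ran from 5 to 8 in each of the steps day 5 to 7 and day 7 to 11, 2 to 4 at 7 Gy on day 7, 1 to 5 at 7 Gy on day 11, 2 to 6 for the day 7 slope and 4 to 7 for the day 11 slope. The range for day 7 to 11 counts H2-Q7 and H2-Q9, which had to differ there, and gives no check of that step. At 2 and 4 Gy on both days, and for the difference between days, they stayed at 0. With the block, chosen after seeing the data and run for the day 11 doses, they ran from 1 to 6 at 2 Gy and from 6 to 7 at 4 Gy, and stayed at 9 at 7 Gy. Genes called ran from 2946 to 3326, 2923 to 3338, 8 to 24 (2 Gy, day 7), 125 to 229 (4 Gy), 705 to 1001 (7 Gy), 0 to 1 (4 Gy, day 11), 60 to 165 (7 Gy), 1140 to 1921 (day 7 slope), 287 to 626 (day 11 slope) and 443 to 608 (difference between days). With the block they ran from 23 to 76 at 2 Gy, 84 to 160 at 4 Gy and 675 to 862 at 7 Gy on day 11.

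Changes of sign on leaving out 1 library concerned only changes that had no call. On the log2 scale they ran from -0.19 to 0.76 for H2-Q7 and H2-Q9 (day 7 against day 5). At 2 Gy on day 7 they ran from -0.032 to 0.22 for H2-K1, -0.075 to 0.28 for H2-D1, -0.42 to 0.27 for Tap2, -0.14 to 0.12 for Tapbp, -0.32 to 0.57 for Psmb8 and -0.069 to 0.50 for Psmb9. At 4 Gy on day 7 they ran from -0.037 to 0.26 for Tapbp and -0.015 to 0.79 for Psmb8. On day 11 they ran from -0.10 to 0.20 for Tapbp and -0.031 to 0.79 for Psmb8 at 2 Gy, and from -0.0088 to 0.31 for Tapbp at 4 Gy. The difference between days ran from -0.34 to 0.086 for Tapbp and -0.51 to 0.40 for Psmb8.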

Other observations

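A class II gene stood apart from the rest of its list. H2-Eb1, which encodes the beta chain of the I-E molecule, was at 0.689 ± 0.648 CPM (SD, n = 3) at 0 Gy and 10.0 ± 1.25 CPM at 7 Gy on day 7, and at 1.80 ± 0.60 and 12.0 ± 1.66 CPM on day 11. Its log2 change by edgeR was 3.78 ± 0.56 (adjusted p = 0.0013) and 2.67 ± 0.49 (adjusted p = 0.0159). The day 7 mean at 0 Gy lay below the level of 3 counts (0.772 to 0.795 CPM in those libraries), which limits the first value. The I-E molecule itself was not measured. H2-Ab1, the beta chain gene of the I-A molecule, changed the other way at day 7, from 8.33 ± 1.92 to 1.79 ± 0.64 CPM (log2 change -2.20 ± 0.39, adjusted p = 0.00381). H2-Aa and H2-Ob were at 0 in every library, and Ciita, the class II transactivator gene, had at most 1 count in any library. Of 10 class II genes, 5 had enough counts to be tested, and besides H2-Eb1 and H2-Ab1 none was called at 7 Gy at either day by edgeR with or without the culture.

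Ligands of the NKG2D receptor, which NK cells use to see stressed cells, had 5 of 8 listed genes in the table. At 7 Gy edgeR called 0 of 4 tested at day 7 and 0 of 3 at day 11, with 1 at an unadjusted p under 0.05 on each day, 1 and 0 by DESeq2, and 1 on each day with the culture.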
